A study of Mus musculus with 4 samples.

Results

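Mammospheres grown from mice that had received bisphenol A (BPA) alone around puberty were compared with mammospheres from vehicle-treated mice. The comparison used 2 of the 4 libraries of the series, chosen by their treatment labels, with 1 library in each group. The control group was Balb/C mice given sesame oil by gavage each day for 3 weeks from day 21, and the BPA group was Balb/C mice given BPA at 25 µg/kg/day in the same way. Both groups were kept on a diet low in phytoestrogens, and their mammary glands were taken at 4 months of age. Basal cells were sorted from the glands by flow cytometry and grown for 7 days without attachment in EpiCult-B medium containing 2% B27, basic fibroblast growth factor and epidermal growth factor at 20 ng/mL each, insulin at 10 µg/mL, hydrocortisone at 1 µg/mL and heparin. Spheres of 5 animals were pooled for each library, so neither the spread between animals nor that between cultures can be seen. The other two libraries, DMBA and BPA+DMBA, came from mice of the same 2 arms that were also given DMBA (dimethylbenz[a]anthracene, a carcinogen of mammary tissue) at 30 mg/kg at 2 months, and are used below only to place the values of control and BPA.

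BPA is a plastics monomer that binds estrogen receptors weakly, and puberty is the period in which the mammary ducts grow out under estrogen and growth factor signals. Mammary basal cells include myoepithelial cells and cells with stem cell activity, and the spheres they form in suspension are used to assay that activity. Cells answer growth factors, adhesion and stress within minutes by transcribing the immediate early genes, among them Fos and Jun, whose proteins pair into the transcription factor AP-1. In the spheres, cells also deposit an extracellular matrix of collagens, laminins and matricellular glycoproteins that signals back through integrins.

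Reads assigned to genes numbered 30627055 in the control library and 19672730 in the BPA library. Of 22609 genes, 13353 had at least 20 counts in either library and are called measured here, and 5273 had 0 counts in both. Levels are counts scaled to a common library size (CPM), with the trimmed mean of M-values setting the scale between libraries. Ratios of BPA over control are on the log2 scale after adding a prior count of 2. The interval given with a ratio is the exact 95% Clopper-Pearson interval from the counts, and covers counting error only. It narrows as counts rise, so abundant genes can exclude equality at small ratios. Shares of intervals over all measured genes, given below beside lists, are not matched for abundance. A gene was called apart where it differed at least 2-fold and its interval excluded equality. With 1 library a group no p-value belongs to this pair, and every difference is between these libraries. The libraries differed by more than sampling noise, with a chi-square of 11.5 per degree of freedom over 14646 genes.

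Markers of the sorted cells were present. Of 24 basal and myoepithelial markers, 23 were measured, and Krt14 stood at 171 CPM per kilobase of transcript in control and 180 in BPA, and Krt5 at 52.4 and 65.8. Luminal keratins were higher on the same per-length scale, with Krt18 at 695 in control and 785 in BPA and Krt8 at 296 and 352. Ltf, encoding the secreted milk protein lactoferrin, reached 3771 CPM per kilobase in control and 3538 in BPA. The libraries labelled as grown from basal cells therefore held RNA of both basal and luminal markers after culture. All 17 fibroblast markers were measured as well. Of 18 immune markers 3 were measured, with Ptprc at 3 counts in control and 1 in BPA, and of 6 red blood cell markers 0 were measured.

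The BPA and control libraries were close to each other across the transcriptome. The median log2 ratio of all measured genes was -0.0015, 96.0% of genes lay within 1.5-fold and 82.6% within 1.2-fold. At least 2-fold apart were 27 genes higher in BPA (0.202% of measured genes) and 76 genes lower (0.569%). Most of these were scarce: of the 1928 genes whose higher count was at least 20 and under 100, 4.51% were apart, against 0.174% of 5180 genes with at least 100 and under 1000 counts and 0.112% of 6245 genes at 1000 counts or more. In the scarcest class 24 genes were higher and 63 lower. The filter on raw counts admitted scarce genes more easily through control, the deeper library. With control thinned to the BPA total, 32 genes were 2-fold higher and 53 lower. In the most abundant class 7 genes were apart. Thbs4 was the 1 gene higher in BPA, and Fosb, Fos, Mmp13, Atf3, Dusp1 and Frem1 were lower. At 1.5-fold, 141 genes were higher (1.06%) and 235 lower (1.76%).

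**Figure D1:**
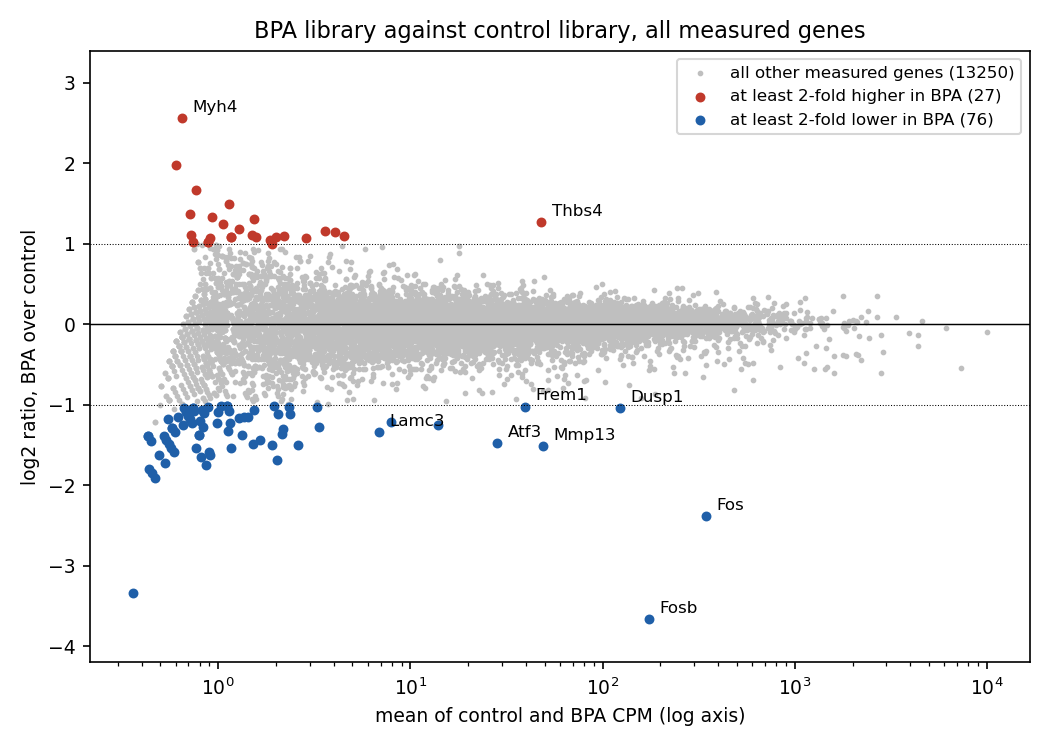
Each point is 1 of 13353 measured genes, with its mean CPM in the control and BPA libraries on a log axis and its log2 ratio of BPA over control on the vertical axis; dotted lines mark 2-fold. Most of the 27 higher (red) and 76 lower (blue) genes sit at low CPM, while Fosb, Fos, Atf3, Mmp13, Dusp1, Frem1 and Thbs4 lie far above 10 CPM.

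The largest differences among abundant genes were in the AP-1 transcription factors. Fosb, which encodes a Fos family subunit of AP-1, stood at 332 CPM in control against 26.3 in BPA, with DMBA at 219 and BPA+DMBA at 194 when all 4 libraries were scaled together. The BPA library was the lowest by a wide margin, and control was the highest. Between BPA and control this was a 12.7-fold lower level, a log2 ratio of -3.66 (interval -3.80 to -3.54) from 503 counts in BPA and 9854 in control. Fos, the founding member of the family, stood at 597 CPM in control against 115 in BPA, with DMBA at 471 and BPA+DMBA at 429. The log2 ratio of BPA over control was -2.39 (interval -2.45 to -2.32), a 5.23-fold lower level. Atf3, a stress-induced partner of AP-1 proteins, stood at 42.9 CPM in control against 15.4 in BPA, with DMBA at 49.6 and BPA+DMBA at 32.5, with a log2 ratio of -1.48 (interval -1.67 to -1.30) for BPA over control. For all 3 genes the other libraries were closer to each other than any was to BPA on the ratio scale.

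Promoter sequences of Fosb, Fos and Dusp1, abundant immediate early genes lower in BPA, are shown because each window held a cAMP response element or its core. That of Mmp13, a collagenase gene described below, is shown for its AP-1 motif. Each run is the 150 bases before the annotated start in RefSeq's GRCm38.p6, 5′ to 3′ on the gene's strand, and capitals mark the motif found. The runs are at chr7:19310046-19310195 (minus strand) for Fosb, chr12:85473740-85473889 (plus) for Fos, chr17:26508473-26508622 (minus) for Dusp1 and chr9:7272364-7272513 (plus) for Mmp13.
Fosb: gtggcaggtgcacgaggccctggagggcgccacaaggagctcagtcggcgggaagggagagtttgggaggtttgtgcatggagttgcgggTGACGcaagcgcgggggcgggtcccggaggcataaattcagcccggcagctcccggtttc
Fos: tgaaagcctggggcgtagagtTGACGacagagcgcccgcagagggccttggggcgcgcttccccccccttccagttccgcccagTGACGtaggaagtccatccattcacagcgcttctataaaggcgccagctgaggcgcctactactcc
Dusp1: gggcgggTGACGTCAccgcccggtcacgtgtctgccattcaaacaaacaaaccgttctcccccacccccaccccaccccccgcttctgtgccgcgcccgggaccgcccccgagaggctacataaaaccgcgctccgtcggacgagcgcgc
Mmp13: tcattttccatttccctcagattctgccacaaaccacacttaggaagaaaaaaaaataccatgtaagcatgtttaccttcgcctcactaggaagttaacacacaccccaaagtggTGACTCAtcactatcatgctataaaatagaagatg

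The full cAMP response element TGACGTCA lay 143 to 136 bases before the Dusp1 start. Its core TGACG, a motif added after the data were seen, lay 60 to 56 bases before the Fosb start, and 129 to 125 and 66 to 62 bases before the Fos start. The AP-1 motif TGANTCA lay 35 to 29 bases before the Mmp13 start. Searched on both strands of all 32851 RefSeq promoter windows of 300 bases, the full element was in 1.79%, its core (which the full element contains) in 20.8% and the AP-1 motif in 7.81%. In the windows of measured genes, of which 78.9% had a promoter in the table, the full element was in 3.58%, the core in 34.9% and the AP-1 motif in 6.65%, so the core is a common sequence among them. The 3 genes shown with it were picked because they hold it. It was also in the windows of early genes that differed little, such as Junb, Nr4a2 and Nr4a3. An estrogen response element and a serum response element were searched as well, and 0 windows of lower genes held either. These matches describe letters and not binding. A comparison of motif shares between called and other genes is void, since under 80% of genes had a promoter in the table in every set, with 78.9% of measured, 77.8% of higher and 68.4% of lower genes.

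The other AP-1 genes differed little. Jun, the main partner of Fos, stood at 162 CPM in control against 122 in BPA, for a log2 ratio of -0.41 (interval -0.48 to -0.34). Junb was at -0.15 on the log2 scale, Jund at 0.08, Fosl1 at 0.19, Maff at 0.19 and Fosl2 at 0.17. The median log2 ratio of the 12 AP-1 factors measured was -0.09. Of these, 3 were at least 2-fold lower in BPA and 0 were 1.5-fold higher, beside 0.569% and 1.06% of all measured genes. Their summed level was 1995 CPM in control and 1183 in BPA, and Fos and Fosb made up most of that difference.

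Immediate early genes outside AP-1 were lower in part. Dusp1, a phosphatase that switches off MAP kinases, stood at 170 CPM in control against 82.9 in BPA, with DMBA at 148 and BPA+DMBA at 137, with a log2 ratio of -1.04 (interval -1.12 to -0.96) for BPA over control. Klf2, a zinc finger transcription factor, stood at 11.4 CPM in control against 4.91 in BPA, with DMBA at 6.60 and BPA+DMBA at 9.75, with a log2 ratio of -1.21 (interval -1.57 to -0.89), and here DMBA was near BPA. Egr1, an early growth response transcription factor, stood at 248 CPM in control against 137 in BPA, with DMBA at 187 and BPA+DMBA at 181, a log2 ratio of -0.86 (interval -0.93 to -0.80). Nr4a1, an orphan nuclear receptor, was at -0.93 on the log2 scale, Klf4 at -0.82 and Zfp36, which destabilizes cytokine mRNAs, at -0.79. In each of these 6 genes the BPA library was the lowest of the 4. Rgs2, a regulator of G protein signalling induced by cAMP and outside the list, stood at 20.2 CPM in control against 8.51 in BPA, with DMBA at 33.9 and BPA+DMBA at 24.9.

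Of the 26 measured genes of the list, 6 were at least 1.5-fold lower and 0 higher, beside 1.76% and 1.06% of all measured genes. The median was -0.11 (-0.18 over members with at least 100 counts and -0.07 with the control library thinned to the BPA total), and 12 intervals lay below equality and 5 above it, against 14% and 15.4% of all measured genes. Myc, at a log2 ratio of 0.36, Gadd45b at 0.32 and Ier3 at 0.15 were higher in BPA. Of 12 ERK feedback regulators, which report sustained growth factor signalling, 0 were 1.5-fold apart, 7 had intervals above equality and 0 below, beside the same shares of all genes. The lower levels were thus found in a subset of immediate early genes, and the ERK feedback genes had a median of 0.10.

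**Figure D2:**
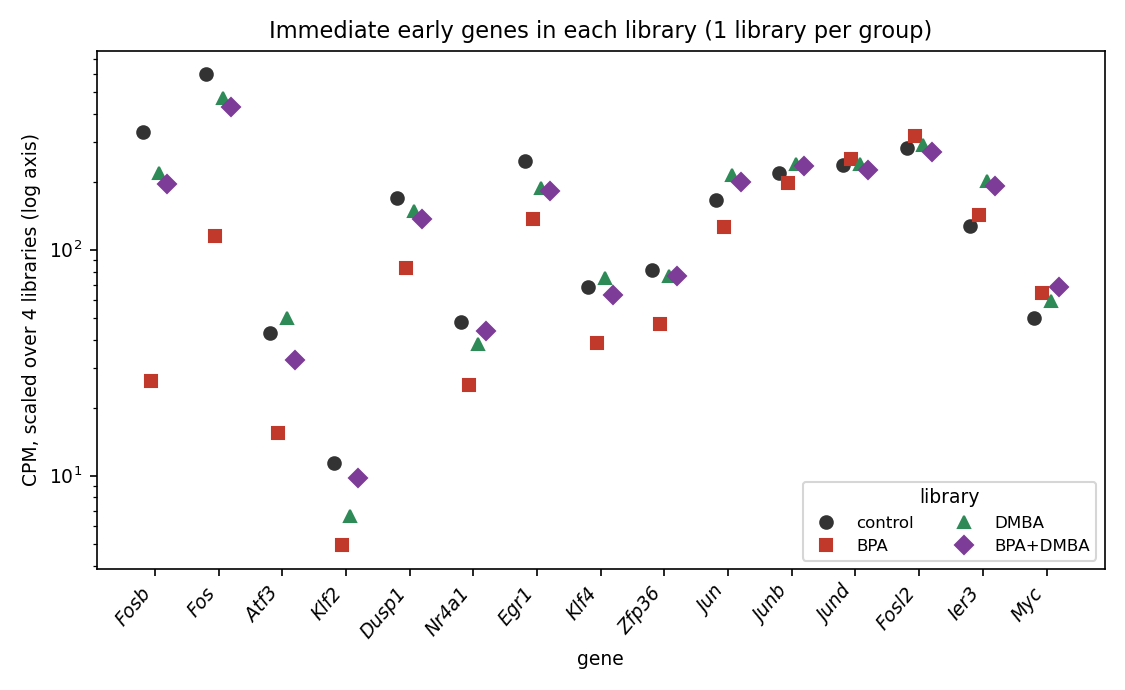
Levels of 15 immediate early genes in each of the 4 libraries, in CPM scaled over 4 libraries on a log axis, 1 point per library. The BPA library (red squares) is the lowest for genes from Fosb to Jun and is slightly lowest for Junb, highest for Jund and Fosl2, and between the others for Ier3 and Myc.

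Matrix genes were also lower in the BPA library, by smaller factors but over many members. Mmp13, the collagenase that cleaves fibrillar collagens, stood at 74.6 CPM in control against 26.3 in BPA, with DMBA at 16.6 and BPA+DMBA at 28.1. Control was the library that stood apart here, unlike for Fos. The log2 ratio of BPA over control was -1.51 (interval -1.66 to -1.37). Of 23 measured matrix proteases and inhibitors 1 was 1.5-fold lower and 2 were higher, beside 1.76% and 1.06% of all measured genes, the median being -0.07. Mmp12, the macrophage elastase, stood at 12.0 CPM in control against 23.6 in BPA, for a log2 ratio of 0.97 (interval 0.77 to 1.17), and Mmp24 was at 0.64.

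Collagens were lower as a group by a modest factor. Of 28 measured collagen chains, 22 had intervals below equality and 2 above it, beside 14% and 15.4% of all measured genes, and the median log2 ratio was -0.32. Col3a1, a fibrillar collagen, stood at 1922 CPM in control against 1264 in BPA, for a log2 ratio of -0.60 (interval -0.63 to -0.58). Col1a1, the main chain of type I collagen, stood at 3224 and 2536 CPM, a log2 ratio of -0.35 (interval -0.36 to -0.33). Col12a1 was at -0.61, Col15a1 at -0.55 and Col6a3 at -0.53 on the log2 scale. The epithelial chain Col17a1, a hemidesmosome component, and Col18a1 were the chains with intervals above equality, at 0.13 and 0.11. Only Col3a1 and Col12a1 were lower by at least 1.5-fold. Col10a1, a hypertrophic cartilage collagen outside that list, had 42 counts in control against 7 in BPA, with DMBA at 12 and BPA+DMBA at 26.

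Basement membrane genes were divided by chain. Lamc3, a laminin gamma chain, stood at 10.1 CPM in control against 3.97 in BPA, with DMBA at 2.29 and BPA+DMBA at 5.66, a log2 ratio of -1.34 (interval -1.74 to -0.99) for BPA over control. Frem1, an extracellular matrix protein of the basement membrane zone, stood at 54.3 CPM in control against 26.8 in BPA, with DMBA at 28.2 and BPA+DMBA at 40.8, with a log2 ratio of -1.02 (interval -1.17 to -0.88). Lama1 was at -0.63 and Lama2 at -0.56. The epithelial laminin chains Lama3, at 0.14, and Lama5, at 0.17, were slightly higher. Of 21 measured genes of this list 3 were 1.5-fold lower and 0 were higher, beside 1.76% and 1.06% of all measured genes, and the median was -0.11.

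Matricellular proteins, which modify cell contact with the matrix, held genes at both ends. Spp1, encoding osteopontin, had the largest CPM difference of all genes, with 8692 CPM in control against 5995 in BPA, for a log2 ratio of -0.54 (interval -0.55 to -0.53). Thbs3 was at -0.81, Smoc1 at -0.73 and Wisp2 at -0.68. Of 24 measured members 4 were 1.5-fold lower and 1 was higher, beside 1.76% and 1.06% of all measured genes, with a median of -0.28. Thrombospondins took different directions. Thbs4 was higher by 1.27 on the log2 scale and Thbs1 by 0.36, while Thbs2 was at -0.36. Fn1, encoding fibronectin, was at -0.27, and Sparc at -0.40.

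**Figure D3:**
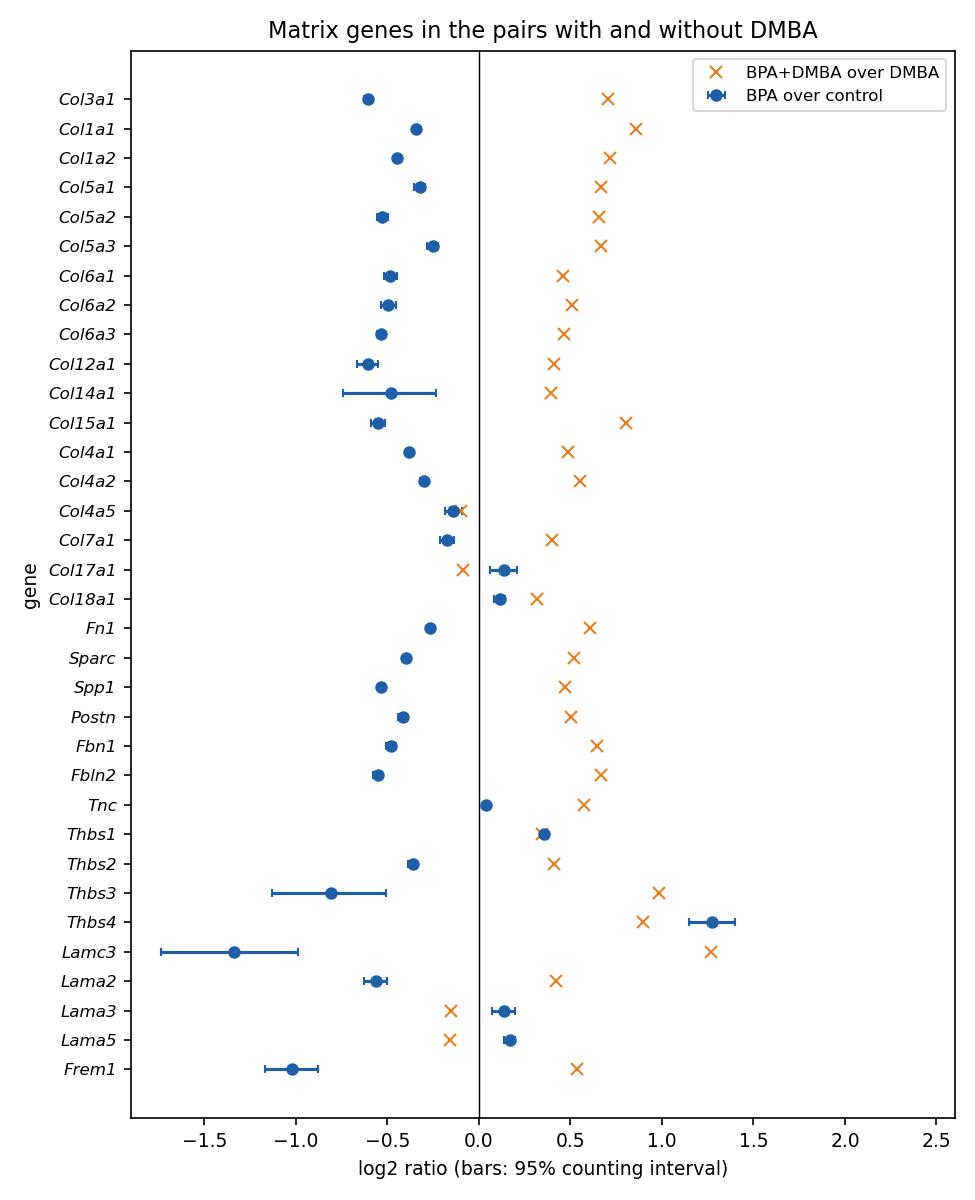
Log2 ratios of 34 matrix genes, for BPA over control (blue circles, with 95% counting intervals) and for BPA+DMBA over DMBA (orange crosses). Most fibrillar collagens and matricellular genes lie left of 0 in the first pair and right of 0 in the second, while Thbs1 and Thbs4 lie right of 0 in both.

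Fibroblast markers moved with these matrix genes. Of 17 markers, all measured, 14 had intervals below equality and 2 above it, beside 14% and 15.4% of all measured genes, and the median log2 ratio was -0.34. Their summed level was 11716 CPM in control and 8720 in BPA. Thy1, a surface glycoprotein of mesenchymal cells, was at -0.69 and Pdgfrb, a receptor of fibroblasts and pericytes, at -0.43, whereas Dcn, encoding decorin, was at -0.10 and Cd34 at 0.46. Scaled over 4 libraries the summed marker level was 12032 CPM in control against 9001 in BPA, with DMBA at 7583 and BPA+DMBA at 12041. The summed collagen level ranked the libraries in the same order, with 21324, 16470, 15750 and 23535 CPM. The list shares collagen genes with the collagen list, and its part in the matrix result was not tested. In pooled spheres, fewer cells of a type and less RNA per cell cannot be told apart.

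Thbs4 was the clearest gene on the higher side. It encodes thrombospondin 4, a secreted glycoprotein of tendon, muscle and injured tissue matrix, and stood at 28.9 CPM in control against 70.1 in BPA, with DMBA at 28.8 and BPA+DMBA at 53.7. Both BPA libraries lay above both libraries without BPA. The log2 ratio was 1.27 (interval 1.15 to 1.40) for BPA over control and 0.90 for BPA+DMBA over DMBA, pairs that share no library. In the additive edgeR quasi-likelihood model of BPA and DMBA over all 4 libraries the fitted log2 BPA effect was 1.09, with an unadjusted p of 3.78e-05 and a Benjamini-Hochberg adjusted p of 0.515.

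The remaining genes higher in BPA were scarce. Tll1, a tolloid-like protease that processes procollagen, had 67 counts in control against 99 in BPA, for a log2 ratio of 1.16 (interval 0.73 to 1.66), and it was at 0.84 in BPA+DMBA over DMBA. Nefm, a neurofilament subunit, had 76 and 111 counts, and Nptx1, a neuronal pentraxin, had 87 and 123. Rgs4, which dampens G protein signalling, was at 42 and 60 counts. Nefm, Nptx1 and Rgs4 were all lower in BPA+DMBA than in DMBA, with log2 ratios of -0.85, -0.56 and -0.73.

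Genes of contractile muscle were among the highest ratios at very low counts. Myh4, a fast skeletal myosin heavy chain, had 4 counts in control against 23 in BPA, with DMBA at 5 and BPA+DMBA at 6. Myh8, the perinatal isoform, had 17, 34, 0 and 4 counts. Des, encoding the muscle intermediate filament desmin, had 15, 27, 16 and 8 counts. Myh4 and Myh8 are near-identical paralogs, so the split of reads between them is uncertain. The muscle list does not hold Myh4. Of its 17 measured genes, 2 were 2-fold higher, beside 0.202% of all measured genes, and the median was -0.06. Msh5 (a meiotic recombination factor), Igsf9b, Trpa1 (an ion channel), Myct1, Micalcl, Mt3 and Zan completed the named higher genes, with log2 ratios from 1.05 in Mt3 to 1.98 in Zan.

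Other named genes on the lower side were Ndufa4l2, a hypoxia-induced mitochondrial protein, with 95 counts in control and 18 in BPA, Prr16 with 118 and 26, Srgn, the proteoglycan serglycin, with 87 and 19, and Rarres2, the chemokine chemerin, with 145 and 38. Their log2 ratios lay between -1.69 and -1.27. Spata3, a testis gene, had 22 counts in control and 0 in BPA, DMBA and BPA+DMBA. The log2 ratio of Spata3 was -3.33, and the upper bound of its interval was -1.83. Against the 3 counts that a count of 0 allows, the level was at least 4.75-fold lower in BPA, leaving out counting error in control.

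Epithelial genes were level or slightly higher in the BPA library. Of 16 shared luminal epithelial markers, 12 had intervals above equality and 1 below, beside 15.4% and 14% of all measured genes, with a median of 0.16. Krt8 was at 0.25 and Krt18 at 0.18 on the log2 scale, and Muc1, a cell surface mucin, at -0.41. Of 17 claudin and tight junction genes, 13 had intervals above equality and 0 below, beside the same shares of all genes, and the median was 0.15. Cldn1, a barrier-forming claudin, stood at 346 CPM in control against 459 in BPA, with DMBA at 497 and BPA+DMBA at 398, for a log2 ratio of 0.40 (interval 0.36 to 0.44) between BPA and control. No member of either list was 1.5-fold apart.

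Basal markers had no common direction, while most luminal progenitor markers were slightly lower in BPA. Of 23 basal markers, 0 were 1.5-fold apart and the median was 0.05. Krt17 was at 0.45, Krt5 at 0.33, Trp63, the basal lineage transcription factor, at 0.22 and Krt14 at 0.07, while smooth muscle actin Acta2 was at -0.30. Of 13 luminal progenitor markers 10 had intervals below equality and 2 above it, beside 14% and 15.4% of all measured genes, with a median of -0.14. Hey1, a Notch target, was at -0.66, the casein Csn1s1 at -0.45 and Elf5, the alveolar transcription factor, at -0.24. The 28 measured stem and progenitor regulators included 0 genes 1.5-fold apart, and their median was 0.12. Sox9, which maintains mammary progenitors, stood at 158 CPM in control against 213 in BPA, for a log2 ratio of 0.43 (interval 0.37 to 0.49). Procr, a surface marker of basal stem cells, was at 0.33, Aldh1a1 at 0.47 and the clock repressor Nr1d1 at -0.43.

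Genes of DNA replication and mitosis were slightly higher in BPA, and replication-dependent histone genes were not. Of 30 DNA replication genes 14 had intervals above equality and 1 below, beside 15.4% and 14% of all measured genes, with a median of 0.18, and Uhrf1, a maintenance methylation factor, was at 0.37 and the replicative helicase subunit Mcm6 at 0.33. Of 32 mitotic genes 13 had intervals above equality and 0 below, beside the same shares of all genes, with a median of 0.15, and Cdc20 was at 0.35 and Aurkb, a mitotic kinase, at 0.35. Ccnd1, encoding cyclin D1, stood at 645 CPM in control against 816 in BPA, for a log2 ratio of 0.34 (interval 0.31 to 0.37). In BPA+DMBA over DMBA the median was -0.02 for replication and -0.15 for mitosis. Of 34 replication-dependent histone genes 8 were measured, with a median of -0.35 in BPA over control. Of these 8, 3 had intervals below equality and 0 above, beside 14% and 15.4% of all measured genes.

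Lipid genes were divided. Of 31 cholesterol and fatty acid synthesis genes, 19 had intervals above equality and 2 below, beside 15.4% and 14% of all measured genes, with a median of 0.18. Insig1, a sterol-sensing brake on cholesterol synthesis, was at 0.38 and Stard4, a sterol carrier, at 0.31. The 2 lower genes were Scd1, the stearoyl-CoA desaturase, at 3381 CPM in control and 2218 in BPA, with a log2 ratio of -0.61 (interval -0.62 to -0.59), and its regulator Srebf1 at -0.39. The summed level of the list was lower in BPA (7748 CPM) than in control (8542 CPM), opposite to its median, and Scd1 alone differed by more than that sum did.

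The largest CPM gain of all genes was that of Actb. Actb, encoding beta actin, stood at 2349 CPM in control against 3007 in BPA, for a log2 ratio of 0.36 (interval 0.34 to 0.37). Thbs1 stood at 1561 and 1999 CPM and the filamin Flna at 2256 and 2531. Timp3, a matrix-bound metalloproteinase inhibitor, was at 0.32. All these gains were under 1.5-fold.

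Hormone response was examined in the spheres themselves, which grew without added estrogen in the listed supplements and with hydrocortisone. Esr1, encoding estrogen receptor alpha, had 97 counts in control against 52 in BPA, for a log2 ratio of -0.27 whose interval, -0.79 to 0.23, included equality. Esr2 had 3 counts in each. The related orphan receptor Esrra was at -0.04 and Esrrg at -0.56. Pgr, the progesterone receptor and an estrogen target, stood at 14.3 CPM in control against 21.9 in BPA, with DMBA at 45.0 and BPA+DMBA at 33.5, with a log2 ratio of 0.61 (interval 0.41 to 0.81) for BPA over control. The target Greb1 was at -0.14, Areg at 0.42, Stc2 at -0.50 and Wisp2 at -0.68. Of 24 measured estrogen response genes, 1 was 1.5-fold higher and 1 lower, beside 1.06% and 1.76% of all measured genes, with a median of 0.04, so the list gave no common direction.

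Glucocorticoid response genes leaned lower. Of 16 genes, 10 had intervals below equality and 1 above, beside 14% and 15.4% of all measured genes, with a median of -0.26. Tsc22d3, a leucine zipper mediator of glucocorticoid action, stood at 46.8 CPM in control against 29.8 in BPA, for a log2 ratio of -0.65 (interval -0.79 to -0.51), and Pdk4, a pyruvate dehydrogenase kinase, was at -0.56. Cdkn1c, a cell cycle inhibitor, was at 0.79. Dusp1 belongs to this list as well as to the immediate early genes. Of 9 measured aryl hydrocarbon receptor genes 1 was 1.5-fold higher and 0 were lower, beside 1.06% and 1.76% of all measured genes. The higher gene was Cyp1a1, with 43 counts in control and 55 in BPA. The list leaned the other way, with a median of -0.16. Of its 9 intervals 5 lay below equality and 2 above, beside 14% and 15.4% of all measured genes.

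Endothelial and pericyte markers were scarce, and 5 of 17 were 1.5-fold higher in BPA, beside 1.06% of all measured genes and 112 of the 1928 genes with fewer than 100 counts. The list's median of 0.20 was 0.06 over members with at least 100 counts and 0.29 with the control library thinned to the BPA total. The 5 members 1.5-fold higher included Emcn, an endothelial sialomucin, at 2.13 CPM in control and 3.90 in BPA. Also among them were Rgs5, a pericyte gene, at 1.87 and 3.39, and the receptors Kdr at 2.72 and 4.71 and Tie1 at 3.61 and 6.22. The summed level of the list was 520 CPM in control and 515 in BPA, so its few abundant members did not share this difference. Of the 17, 6 lay below 0, among them Esam at -0.75 and Abcc9 at -0.66, and 0 were called 1.5-fold lower. Of 9 adipocyte markers 3 were measured, without a common direction. Lpl, encoding lipoprotein lipase, was at -0.69, Pparg at 0.49 and Fabp4 at 0.15.

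**Figure D4:**
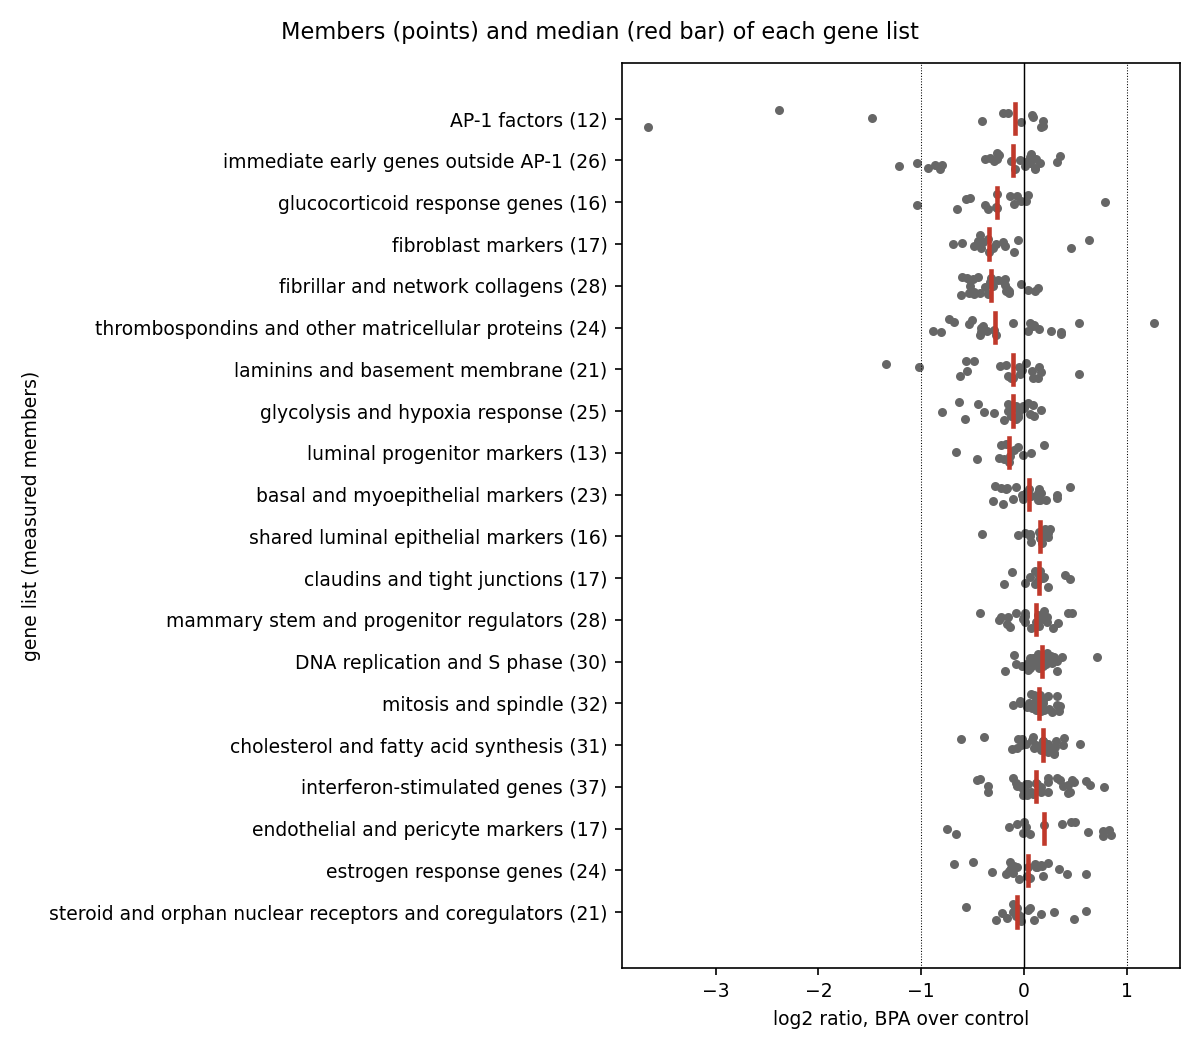
Log2 ratio of BPA over control for the measured members of 20 gene lists (points, spread vertically for view), with the median of each list as a red bar and dotted lines at 2-fold. Medians run from -0.34 in fibroblast markers to 0.20 in endothelial and pericyte markers, and Fosb, Fos and Atf3 are the points farthest left in the AP-1 list.

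The called genes were placed among all 4 libraries, to describe whether control or BPA lay apart from the others. Choosing genes by this pair favours an end position for control or BPA. Where control lay apart, an unusual control library and an effect of DMBA cannot be told apart. Of the 76 lower genes, BPA lay at least 1.5-fold below all 3 other libraries in 33, among them Fos, Atf3, Dusp1 and Rgs2. Control lay at least 1.5-fold above all others in 18, among them Mmp13, Lamc3 and Ndufa4l2. In 4 genes, Fosb included, both held, and in 21, Frem1, Klf2 and Prr16 among them, neither did. Of the 27 higher genes, BPA was apart in 7, among them Myh4, Myh8, Des and Tll1, control was apart in 13, among them Nptx1, Rgs4 and Mt3, and neither was in 7, Thbs4 and Nefm among them. Over all measured genes BPA was the lowest library by 1.5-fold in 108 (0.809%) and the highest in 33 (0.247%). Control was the highest in 70 (0.524%) and the lowest in 81 (0.607%). DMBA stood apart more often than either, as the highest in 129 and the lowest in 123 genes, and BPA+DMBA was the highest in 58 and the lowest in 68.

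The same measure was taken in BPA+DMBA over DMBA, libraries that the calls did not use. Of the 27 genes higher in BPA over control, 8 were also higher in that pair and 19 were not, with a median log2 ratio of -0.36. Of 75 lower genes with counts there, 35 were also lower and 40 were not, with a median of 0.04, while 49.6% of all measured genes were lower. Past 1.5-fold in the same direction were 3 of the higher and 3 of the lower genes, and past it in the opposite direction 4 and 6, where that pair as a whole had 2.19% of its genes higher and 1.87% lower. Past 2-fold in the same direction were 1 higher gene, Myh8, and 2 lower genes, Ccdc158 and Hist2h2bb, where the pair as a whole had 0.321% of genes higher and 0.671% lower. Past 2-fold in the opposite direction were Cyyr1 and Zan among the higher genes and Lamc3, Col10a1 and 6430550D23Rik among the lower ones. Fosb was at -0.17 and Fos at -0.13 in this pair, where Atf3 was at -0.61.

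The matrix lists had the opposite sign in that pair. The collagen median was 0.46, with 22 of 28 chains above 0, and the fibroblast marker median was 0.52, with 16 of 17 above 0. Mmp13 was at 0.76, Lamc3 at 1.27 and Frem1 at 0.53. The fibroblast marker sum was also higher in BPA+DMBA than in DMBA, as given above. Other list medians also changed sign, such as glucocorticoid response at 0.09, glycolysis and hypoxia at 0.12, and claudins and tight junctions at -0.11. Those of interferon-stimulated genes, at 0.27, and of cholesterol and fatty acid synthesis, at 0.07, kept theirs. Whether the BPA effect differs with and without DMBA was not tested, since each of the 4 groups is 1 library.

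**Figure D5:**
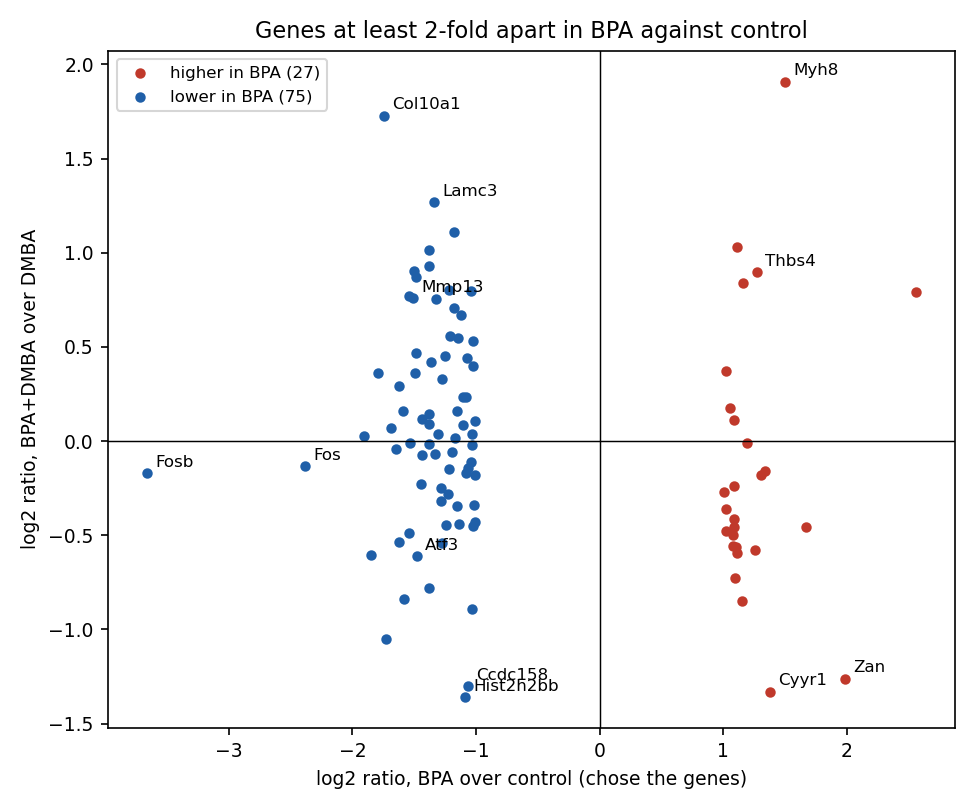
Genes at least 2-fold apart in BPA over control, with that log2 ratio on the horizontal axis and the log2 ratio of BPA+DMBA over DMBA on the vertical axis; red points are the 27 higher genes and blue points 75 lower genes. Points scatter on both sides of 0 on the vertical axis, with Fosb and Fos close to it at -0.17 and -0.13, and Thbs4 at 0.90.

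A test was possible only for a BPA effect common to both pairs. The additive edgeR quasi-likelihood model, with 1 residual degree of freedom, called 0 of 13638 genes (0%) at an adjusted p of 0.05, and in 304 genes the unadjusted p was under 0.05. The DESeq2 Wald test called 1 gene, Thbs4, and edgeR without a filter on low counts called Thbs4 and Csn2. Csn2 had 2 counts in control and 0 in BPA, so it was not among the measured genes. The unadjusted edgeR p was 0.0509 for Fosb, 0.0374 for Fos and 0.00135 for Atf3, each with an adjusted p of 0.999 after Benjamini-Hochberg adjustment.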

How the data were processed

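RNA of mammospheres was sequenced from TruSeq libraries, 1 library per group. The deposited values are raw counts of reads per gene symbol, whole numbers used as the authors deposited them. Per the submitters' processing notes, the mouse build was mm9 and the tools included HTSeq, DESeq and CASAVA 1.8.2. The aligner is not given in the sources used here, nor is the strand setting, so reads of overlapping and antisense genes may be mixed. The deposited summary entries, left out of library sizes, held 13.5% of counts in control and 13.0% in BPA for reads outside genes, 22.9% and 23.3% for reads not placed uniquely, and 0.435% and 0.441% for ambiguous reads. A count of 0 allows up to 3 counts, 0.0980 CPM in control and 0.152 in BPA, and such limits cover counting error only.

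Genes with at least 20 counts in either library were scaled by edgeR's TMM method (edgeR 4.0.16 in R 4.3.3), with factors of 0.995 for control and 1.00 for BPA. Values in all 4 libraries use factors from all 4. Ratios and intervals were computed with numpy 2.4.6 and scipy 1.17.1, and DESeq2 1.42.0 was an alternative. The pair rule and the additive model were tested on simulated data. Lengths came from GENCODE M21 and promoters from RefSeq, both on GRCm38.p6, and were matched by symbol, with no deposited coordinates used. A length was found for 99.1% of measured genes.

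Named were the 15 higher and 15 lower called genes with the interval bound farthest from equality, the 10 largest CPM gains and losses, up to 4 members of each list with the largest ratios, and fixed receptors, keratins and early genes. The rule skips small RNA genes and genes with predicted or clone names. Other genes in the text were chosen after seeing their values. The comparison and the 53 gene lists (1090 symbols, 5 of them not matched) were chosen with earlier results of these data known. Values of a few members of the lists are not reported here.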

Additional observations from a re-analysis of the deposited data

Results flagged for a closer look

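In 5 genes the BPA ratio passed 2-fold in opposite directions with and without DMBA, and in none of them was the difference tested. The values are the log2 ratio of BPA+DMBA over DMBA minus that of BPA over control. Zan, encoding the sperm protein zonadhesin, had a difference of -3.24, from 6 counts in control against 20 in BPA, with DMBA at 33 and BPA+DMBA at 7. Cyyr1 had a difference of -2.71, from 11, 21, 48 and 10 counts in the same order. Col10a1 had a difference of 3.48, from 42, 7, 12 and 26 counts. Lamc3, the most abundant of them, had a difference of 2.61, from 300, 76, 64 and 90 counts. For 6430550D23Rik the difference was 2.29, from 31, 8, 10 and 14 counts. Counts under 50 in all libraries stand behind 4 of these 5 genes.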

How the results depend on the processing

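The counts of called genes depended on the filter on low counts. With no filter (17336 genes) 66 genes were 2-fold higher, which made 174 either way. With at least 100 counts in either library (11425 genes), 3 were 2-fold higher and 13 lower, 16 in all, and 29 were 1.5-fold higher and 108 lower, 137 in all. With the control library thinned to the BPA total, 32 genes were higher and 53 lower, of which 19 and 46 were among the 27 and 76. Total counts, DESeq2 size factors, 4-library factors, a prior count of 0.5 and removal of the length trend kept each 2-fold count within 1.5 times. The additive test called 1 gene with DESeq2 and 2 without the filter. Among named genes 0 ratios changed sign, but 16 values fell outside the gene's counting interval, 13 of them with the length trend removed and 3 with total counts. For the 28 lists whose median lay farthest from 0, 54 medians under an alternative shifted by more than the counting interval of the list's summed level and 169 did not. Those 54 included 13 with the length trend removed, 12 with total counts, 10 with the control library thinned and 9 with at least 100 counts. Among these lists the adipocyte median alone changed sign, to -0.27 with at least 100 counts from 0.15. The cause was not tested, beyond the smaller number of genes that the stricter filter leaves. Shorter genes were more common on the lower side, with a median transcript length of 2390 bases against 3432 for all measured genes. No paired analysis was possible because each group is 1 library.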

Other observations

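Further gene groups showed small differences. Interferon-stimulated genes, which cells switch on after sensing viral RNA or interferon, were 1.5-fold higher in 3 of 37 and lower in 0, beside 1.06% and 1.76% of all measured genes, with a median log2 ratio of 0.11 (0.07 over members with at least 100 counts). Usp18, a brake on interferon signalling, was at 0.78, the antiviral gene Oasl1 at 0.65 and Rsad2 at 0.61. Of the 37, 11 lay below 0, among them Ifi44 at -0.46 and Ifit3 at -0.42. Of 25 glycolysis and hypoxia genes 14 had intervals below equality and 1 above, beside 14% and 15.4% of all measured genes, with a median of -0.11, and the lactate transporter Slc16a3 was at -0.63, Adm at -0.57 and Bnip3 at -0.45. Of 15 squamous differentiation genes measured, 6 had intervals above equality and 1 below, beside 15.4% and 14% of all measured genes, and Sprr1a, a cornified envelope precursor, was at 0.75 and Klk6 at 0.39. In BPA+DMBA over DMBA these 2 genes were at -0.83 and -0.79.

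The 3 metallothioneins measured were divided, with Mt1 at -0.27, Mt2 at -0.35 and the scarce Mt3 at 1.05. Igfbp5, a secreted binding protein of insulin-like growth factors, stood at 1831 CPM in control against 1392 in BPA, for a log2 ratio of -0.40, and at 1.07 in BPA+DMBA over DMBA. Housekeeping groups stayed near 0: the median was -0.00 for 45 ribosomal protein genes, -0.01 for 32 respiratory chain subunits and 0.04 for 18 heat shock proteins and chaperones. Even so, 7 of the 18 heat shock genes had intervals above equality and 1 below, beside 15.4% and 14% of all measured genes.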
